A study of Mus musculus with 12 samples.

Results

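The genes described here make bile acids and move them through the hepatocyte, and there are 10 of them among the 17007 genes with deposited values. They were taken by symbol: *Cyp7a1*, *Cyp8b1*, *Cyp27a1*, *Cyp7b1* and *Baat* for synthesis and conjugation, *Abcb11*, *Abcb4* and *Abcc2* for export into the bile canaliculus, and *Slc10a1* and *Slco1b2* for uptake from the blood. RNA-Seq was performed on 12 libraries in 4 groups of 3: C57BL/6 WT normal liver (NL), and *c-MYC/MCL1/RictorKO Tsc2KO* HCC from mice given vehicle, MLN0128 or everolimus. All 9 tumors were induced in the same way. Mice with floxed alleles of both genes (*Rictor* fl/fl and *Tsc2* fl/fl, C57BL/6J background) received c-MYC, MCL1 and Cre plasmids by hydrodynamic tail vein injection, so that the deletions occurred only in cells that had taken up the CMV-driven Cre plasmid, and a piece of tumor can hold other cells as well. Everolimus, a rapamycin analog, is directed at mTORC1, whereas MLN0128 inhibits the mTOR kinase itself and so both of its complexes. According to the labels, each drug was given by gavage at 1 mg/kg/day on 6 days a week for 3 weeks from day 6 after injection, and the mice were sacrificed at 3.7 weeks. The study's own account of the RNA-Seq tumors has a treatment of days rather than weeks, so how long these tumors had been treated is uncertain. The labels give no ages and name no injection or gavage for the normal livers, so the normal livers differ from the vehicle-treated tumors in genotype, plasmids and handling at once.

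Bile acids are made from cholesterol by 2 routes. In the classical route CYP7A1 performs the first and rate-limiting hydroxylation, and CYP8B1 adds the hydroxyl group that separates cholic acid from the other primary bile acids. In the alternative route CYP27A1 oxidizes the side chain and CYP7B1 hydroxylates the resulting oxysterols, and BAAT joins the finished acids to taurine or glycine. The salts are pumped into bile by ABCB11, the bile salt export pump, together with phospholipid flipped by ABCB4 and conjugates exported by ABCC2, and they return from the blood through SLC10A1 and SLCO1B2. The nuclear receptor FXR, the product of *Nr1h4*, senses bile acids in hepatocytes. It is known to induce *Abcb11*, *Abcb4*, *Slc51b* and *Nr0b2*, and SHP, the product of *Nr0b2*, represses *Cyp7a1* and *Cyp8b1*.

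The windows before the start sites are shown for 3 of these genes because each matches a recognition sequence of a hepatocyte or bile acid regulator. The match was exact in *Cyp8b1* and had 1 letter changed in *Abcb11* and *Slco1b2*. RefSeq promoter windows (GRCm38.p6) of 250 bases before and 50 after the start were found for 7 of the 10 genes, with 2 windows for *Slc10a1*. The last 120 bases before the start are given, 5′ to 3′ on the gene's strand, with motif matches in capitals.
*Abcb11*, chr2:69342617-69342736, minus strand: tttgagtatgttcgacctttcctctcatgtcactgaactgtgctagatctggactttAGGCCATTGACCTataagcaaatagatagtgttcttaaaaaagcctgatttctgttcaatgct
*Slco1b2*, chr6:141629398-141629517, plus strand: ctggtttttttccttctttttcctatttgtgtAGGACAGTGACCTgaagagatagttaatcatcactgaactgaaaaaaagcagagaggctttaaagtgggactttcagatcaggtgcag
*Cyp8b1*, chr9:121916306-121916425, minus strand: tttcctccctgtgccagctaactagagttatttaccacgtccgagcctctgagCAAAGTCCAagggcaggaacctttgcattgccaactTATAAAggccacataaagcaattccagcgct
In *Abcb11* the capitals mark an inverted repeat of AGGTCA with 1 base between the arms, the arrangement FXR is known to bind, with 1 letter changed, starting 63 bases before the start. In *Slco1b2* they mark another such repeat with 1 letter changed, 88 bases before the start. In *Cyp8b1* they mark the HNF4A motif CAAAGTCCA at 67 bases and a TATA box, TATAAA, at 31 bases. The repeat with up to 1 changed letter was found in 27 of 32851 windows (0.0822%), and in 2 of the 8 windows of these genes. With no changed letter it was in 3 of all windows and in 0 of these 8. CAAAGTCCA was in 0.475% of all windows and in 1 of these 8, and TATAAA in 13.6% and in 3 of these 8, on either strand. TATAAA also matched at 128 bases before the start in *Slc10a1*, and at 227 and 234 bases in *Slco1b2*. CAAGGTCA, bound by LRH-1 (*Nr5a2*), and the E-box CACGTG were in 1.56% and 7.15% of all windows and in 0 of these 8. These are matches of letters and were not tested as binding sites.

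Values are FPKM (fragments per kilobase, relative to library size) as computed by the authors. Being per length, they allow levels to be set side by side between genes as well as between libraries. The libraries held 17150030 to 25175492 reads as recovered from the FPKM, and the 3 reads that a count of 0 allows on a 2 kb transcript correspond to 0.0495 to 0.144 FPKM, counting error only. The lowest member value, 0.679 FPKM for *Cyp7b1*, rested on 31 reads. The FPKM carried a further scaling, with factors of 0.585 to 0.596 in normal liver and 1.10 to 1.37 in tumors. *Tsc2* was at 4.50 to 5.32 FPKM in normal liver, and in tumors at 2.01 to 2.31 (vehicle), 2.81 to 3.96 (MLN0128) and 2.78 to 2.87 (everolimus). *Rictor* ranged between 1.65 and 2.57 FPKM in normal liver and 1.05 and 1.5 in the vehicle group. The MLN0128 group (1.65 to 2.21) and the everolimus group (1.58 to 1.93) overlapped normal liver. The *Rictor* difference between vehicle and normal liver was not called against 1.5-fold (-0.44, adjusted p = 1 by treat). By limma's moderated test, which asks only for a difference from 0, *Rictor* was lower (adjusted p = 0.0115). That call was kept in 11 of 12 fits with 1 library left out, but the value came to 0.12 with plain library totals. These values cover the whole genes rather than the floxed exons. The libraries of MLN0128 replicates 1 and 2 held *Xist* at 191 and 155 FPKM and 4 Y-linked genes at 0, whereas the other 10 libraries had *Xist* at 0.0699 or less and all 4 Y-linked genes above 0. The labels do not give sex, so comparisons with MLN0128 also set mice of different X and Y content side by side. Summed FPKM of 8 hepatocyte markers, including *Alb*, ran between 86700 and 106500 in normal liver; the vehicle group had 5552 to 7826, the MLN0128 group 3012 to 6083 and the everolimus group 4410 to 10070.

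The first comparison asked what the tumors kept of this pathway. In tumors given vehicle all 10 genes were below normal liver, and for all 10 genes every vehicle-treated tumor lay below every normal liver. Genes were called by limma's treat test, which asks whether a difference on the log2(FPKM + 1) scale exceeds 1.5-fold. The threshold was an adjusted p (Benjamini-Hochberg) of 0.05 over 14397 genes, those reaching 0.5 FPKM in 3 or more libraries. By this rule all 10 genes were lower, while 16.9% of all tested genes were lower and 15.9% higher, and 35.1% had every vehicle-treated tumor below every normal liver. The median log2 fold change was -3.46 for the 10 genes and 0.06 for all tested genes. Since RNA came from whole tissue, fewer hepatocytes and less RNA per hepatocyte cannot be told apart. The share of the normal level that remained ran from 0.474% for *Cyp7b1* to 28.8% for *Abcc2*.

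**Figure D1:**
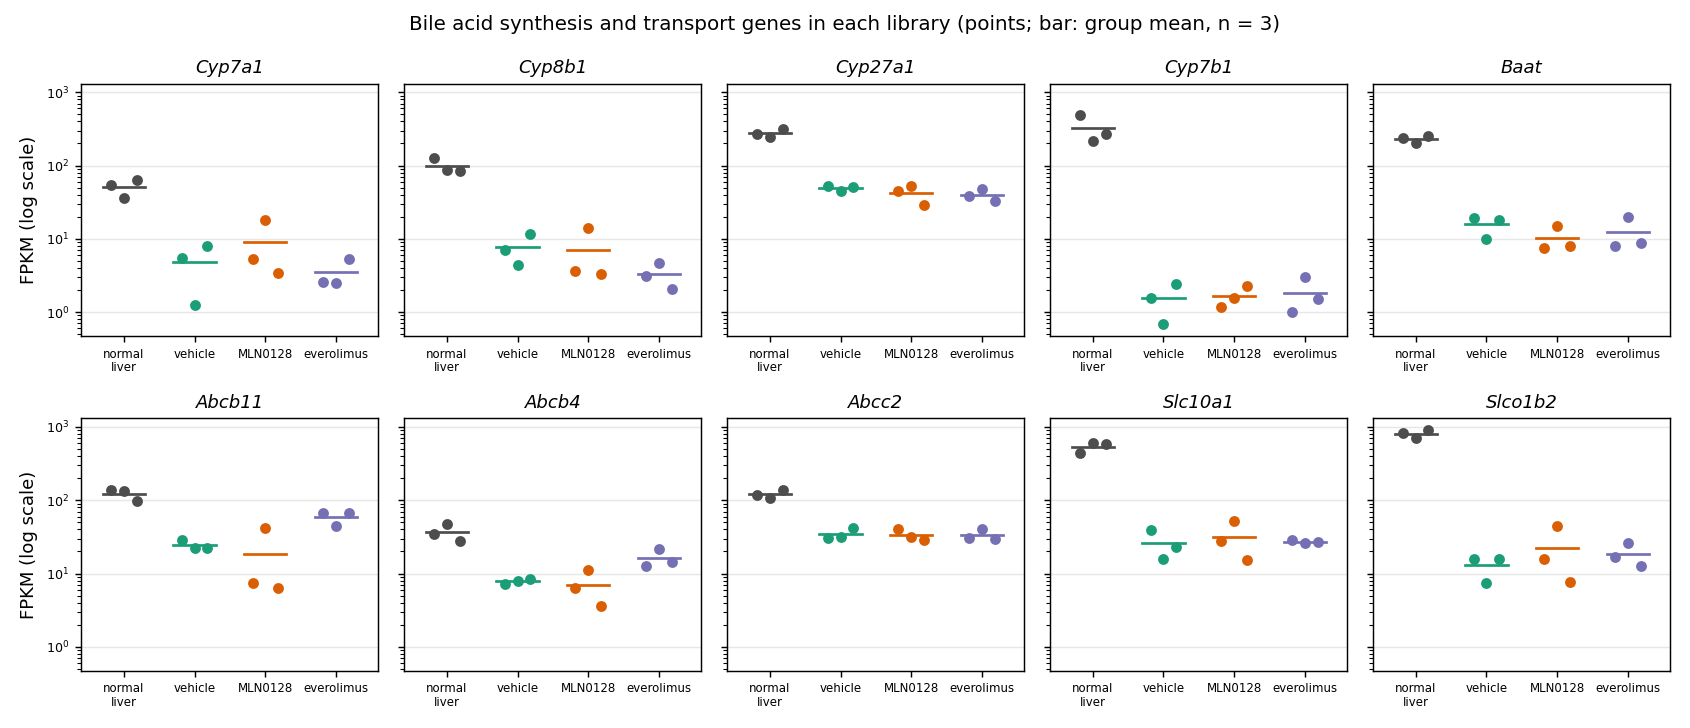
FPKM on a log axis for each of the 10 genes in each library, in normal liver and in tumors given vehicle, MLN0128 or everolimus; points are libraries and bars are group means (n = 3). All normal livers lie above all tumors in every panel, and the everolimus points of *Abcb11* and *Abcb4* lie above those of the other tumors, of which MLN0128 replicate 2 comes closest at 41.2 and 11.2 FPKM.

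In the classical route, *Cyp7a1* (ENSMUSG00000028240.2, chromosome 4, 6265612 to 6275633 of GRCm38) stood at 54.4, 36.5 and 64.0 FPKM in the 3 normal livers. In vehicle-treated tumors it was at 5.50, 1.24 and 7.89 FPKM, with the second tumor well below the others. The log2 fold change was -3.34 (SE 0.564, adjusted p = 0.00114 by treat). *Cyp8b1* (ENSMUSG00000050445.4, chromosome 9, 121914356 to 121916305) went from 127, 85.6 and 83.2 FPKM to 7.08, 4.33 and 11.6 (log2 fold change -3.58, SE 0.449, adjusted p = 0.000116 by treat). Both genes thus stood at about the same share of normal, 9.44% for *Cyp7a1* and 7.78% for *Cyp8b1*.

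The enzymes of the alternative route differed widely from each other in how far they fell. *Cyp27a1* (ENSMUSG00000026170.6, chromosome 1, 74713574 to 74737892) stood at 269, 244 and 311 FPKM in normal liver and 52.1, 44.2 and 50.8 with vehicle. It was the most abundant of the 10 genes in vehicle-treated tumors (log2 fold change -2.46, SE 0.206, adjusted p = 1.02e-05 by treat). *Cyp7b1* (ENSMUSG00000039519.6, chromosome 3, 18071950 to 18243338) stood at 494, 216 and 271 FPKM in normal liver, a spread of 147 (SD), and at 1.55, 0.679 and 2.42 with vehicle. It had the largest difference of the 10, -6.98 on the log2 scale (SE 0.348, adjusted p = 5.12e-08 by treat), and the pseudocount makes this smaller than the ratio of its means. *Cyp7b1* is among 7 genes listed here as male-biased in mouse liver. With *Cyp7b1* counted, 7 of these were lower in the tumors given vehicle by treat, against 16.9% of all tested genes. Of 4 tested genes listed as female-biased, 0 were lower and 1 was higher, against 15.9% of all tested genes higher. Both groups had Y-linked RNA and no *Xist* above 0.0267 FPKM, and the part of sex-biased expression in the result was not tested. *Baat* (ENSMUSG00000039653.9, chromosome 4, 49489422 to 49506557), the conjugating enzyme, went from 237, 201 and 253 FPKM to 19.3, 10 and 18 (log2 fold change -3.83, SE 0.344, adjusted p = 7.80e-06 by treat).

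The canalicular exporters stood at 19.9% to 28.8% of their normal level, above the 0.474% to 17.9% of the synthesis genes. *Abcb11* (ENSMUSG00000027048.15, chromosome 2, 69238282 to 69342616) stood at 136, 135 and 98.0 FPKM in normal liver and 28.6, 22.4 and 22.6 with vehicle (log2 fold change -2.27, SE 0.510, adjusted p = 0.0123 by treat). *Abcb4* (ENSMUSG00000042476.12, chromosome 5, 8893717 to 8959231) went from 34.3, 48.0 and 27.6 FPKM to 7.17, 7.95 and 8.32, values that differed little among the tumors (log2 fold change -2.06, SE 0.317, adjusted p = 0.00156 by treat). *Abcc2* (ENSMUSG00000025194.5, chromosome 19, 43782192 to 43840740) had the smallest difference, from 117, 106 and 137 FPKM to 30.7, 31.1 and 41.9 (log2 fold change -1.77, SE 0.176, adjusted p = 0.000102 by treat). These 3 calls rested on the scaling in the deposited FPKM. With plain library totals, which moved the median of all tested genes from 0.06 to 0.63, the log2 fold changes were -1.35 for *Abcb11* (adjusted p = 0.138 by treat), -1.17 for *Abcb4* (0.0866) and -0.85 for *Abcc2* (0.179). These p were the highest of the alternatives. The lowest were 1.89e-05 by treat for *Abcb11*, and 0.000119 for *Abcb4* and 3.64e-06 for *Abcc2* by limma's moderated test, which was among the alternatives. The other 7 genes remained called.

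Both uptake carriers were among the 3 genes with the lowest remaining share. *Slco1b2* (ENSMUSG00000030236.10, chromosome 6, 141629518 to 141686646), a carrier of organic anions and unconjugated bile acids, was the most abundant of the 10 genes in normal liver at 831, 697 and 913 FPKM. With vehicle it was at 15.7, 7.40 and 15.9 FPKM, 1.60% of normal (log2 fold change -5.92, SE 0.490, adjusted p = 2.70e-06 by treat). *Slc10a1* (ENSMUSG00000021135.8, chromosome 12, 80953183 to 80968705), the sodium-dependent taurocholate carrier, went from 435, 598 and 581 FPKM to 39.7, 16.0 and 23.1, 4.88% of normal (log2 fold change -4.38, SE 0.381, adjusted p = 5.10e-06 by treat). The order of abundance changed accordingly: *Slco1b2*, *Slc10a1* and *Cyp7b1* had the highest mean FPKM in normal liver, and *Cyp27a1*, *Abcc2* and *Slc10a1* had the highest in vehicle-treated tumors. *Slc10a1* (26.3 ± 12.2 FPKM, SD, n = 3) and *Abcb11* (24.5 ± 3.52, n = 3) did not differ there beyond their spread.

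The other genes of the pathway numbered 37 in 5 lists, of which 35 had values and 33 were tested. Of the 33, *Ch25h* and *Fgf15* passed the filter on low values only through the everolimus group and are left out of the counts over all lists. In vehicle-treated tumors 23 of the other 31 were lower and 4 higher than in normal liver by treat, with a median log2 fold change of -1.94. Over all tested genes 16.9% were lower and 15.9% higher, so the 4 higher did not exceed the general share. These shares also apply to the single lists that follow. Of 12 tested synthesis enzymes, a number that includes *Ch25h*, which was not called, 9 were lower and 1 higher. *Slc27a5*, which activates bile acids for conjugation, went from 380, 429 and 467 FPKM to 15.1, 4.32 and 16.8 (log2 fold change -5.21, SE 0.474). *Akr1c14* and *Cyp2c70*, the latter the enzyme of muricholic acid synthesis in mice, had log2 fold changes of -4.76 and -4.42, and both belong to families with close copies that can share reads. The exception was *Cyp39a1*, an oxysterol hydroxylase, at 4.86, 19.2 and 18.2 FPKM in normal liver and 39.9, 50 and 39.7 with vehicle (1.74, SE 0.405, adjusted p = 0.0254 by treat), a call lost without normal liver replicate 1 (adjusted p = 0.0728) or vehicle replicate 2 (0.0761).

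At the sinusoidal membrane, all 3 other uptake carriers were lower: *Slco1a1* went from 494, 385 and 460 FPKM to 1.32, 0.719 and 1.15 (log2 fold change -7.76, SE 0.307, adjusted p = 8.16e-09 by treat), with *Slco1a4* at -3.51 and *Slco2b1* at -3.92. Among the 3 tested carriers of basolateral efflux, *Abcc3* was lower (-2.85) and 2 were higher. *Slc51b*, the beta subunit of the organic solute transporter, measured 0.262, 0.128 and 0.270 FPKM in normal liver and 17.0, 13 and 11.1 with vehicle (3.57, SE 0.376, adjusted p = 2.94e-05 by treat). *Abcc4*, a pump that exports bile acids back to blood, went from 0.552, 0.610 and 0.435 FPKM to 5.05, 9.49 and 11.2 (2.58, SE 0.303, adjusted p = 0.000122 by treat). Of 5 other canalicular carriers, the sterol transporter subunits *Abcg5* (-2.30) and *Abcg8* (-1.89) and *Abcg2* (-1.06) were lower and the multidrug exporter *Abcb1a* was higher (1.78, SE 0.321, adjusted p = 0.00620 by treat). With plain library totals *Abcg5*, *Abcg8* and *Abcg2* were no longer called, at -1.38, -0.98 and -0.17. The *Abcg2* call was also lost without normal liver replicate 1 or 3 or vehicle replicate 2, at adjusted p of 0.0650, 0.0567 and 0.101 by treat.

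Among 10 tested regulators, a number that includes *Fgf15*, which was not called, 7 were lower and 0 higher by treat (16.9% and 15.9% over all tested genes). *Nr1h4* measured 106, 98.2 and 114 FPKM in normal liver and 27.2, 19.7 and 25.5 with vehicle (log2 fold change -2.10, SE 0.261, adjusted p = 0.000325 by treat). *Nr0b2* went from 21.4, 63.7 and 34.7 FPKM to 1.32, 5.03 and 1.63 (-3.49, SE 0.463, adjusted p = 0.000188 by treat). The largest other difference was that of *Nr1i3*, which encodes the xenobiotic receptor CAR, at -2.55. *Hnf4a*, at -1.07 by treat, was no longer called with plain library totals (-0.14) or without vehicle replicate 2 (-0.98, adjusted p = 0.0540).

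**Figure D2:**
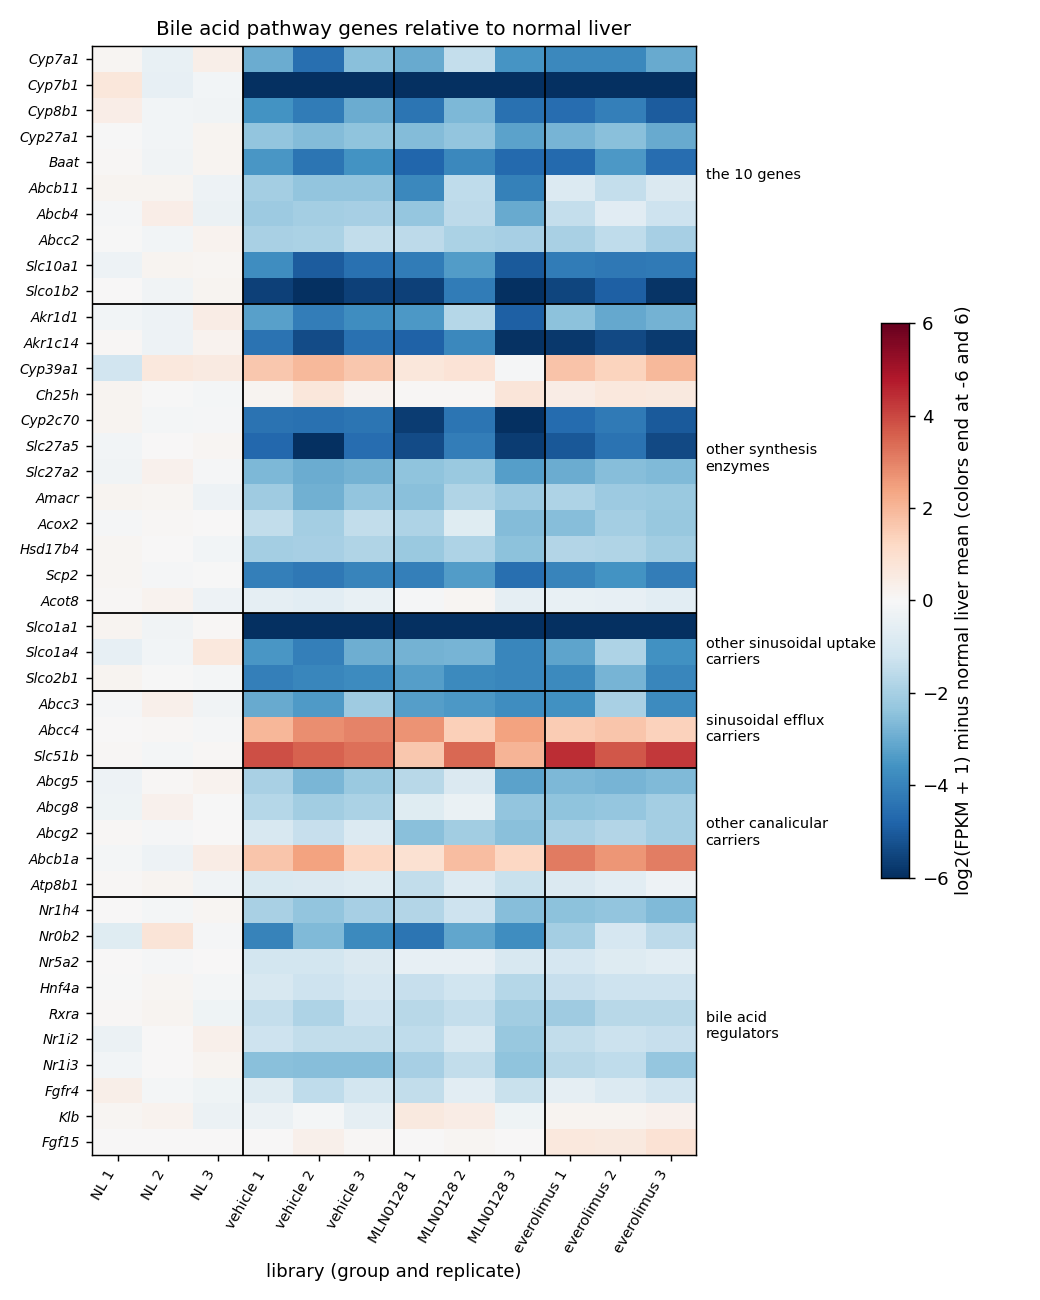
Difference of each library from the normal liver mean on the log2(FPKM + 1) scale for the 43 tested genes of the pathway (rows, in lists) in 12 libraries (columns); blue is lower and red is higher, and colors end at -6 and 6. All 10 genes at the top are blue in all tumors, palest for *Abcb11* and *Abcb4* with everolimus, and *Slc51b*, *Abcc4*, *Abcb1a* and *Cyp39a1* are red in most tumors, the last near white in MLN0128 replicate 3.

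The second question was whether blocking mTOR moved these genes in the tumors. With MLN0128, 0 of the 10 genes were called against vehicle by limma's treat test in either direction, against 1.65% of all tested genes lower and 0.479% higher. By limma's moderated test, which asks only for a difference from 0, 0 were called as well, where 17.1% of all tested genes were lower and 14.9% higher, and 0 of the 10 had an unadjusted p under 0.05. The groups overlapped for all 10 genes. The log2 fold changes ran from -0.88 for *Abcb11* (95% interval -2.0 to 0.236) to 0.68 for *Cyp7a1* (-0.556 to 1.91), with a median of -0.14. The narrowest interval was that of *Abcc2*, -0.423 to 0.347, and the widest that of *Cyp7a1*.

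MLN0128 replicate 2 stood apart within its group. It was the highest of its group for 8 of the 10 genes, and MLN0128 replicate 3 was the lowest for 8, whereas over all tested genes replicate 2 was the highest for 36.7% and replicate 3 the lowest for 40.9%. *Abcb11* stood at 7.41, 41.2 and 6.39 FPKM in the 3 MLN0128-treated tumors. *Cyp7a1* was at 5.35, 18 and 3.40, *Slco1b2* at 15.6, 43.9 and 7.79, and *Slc10a1* at 28.1, 51.6 and 15.2. *Cyp8b1* (3.68, 13.9 and 3.34 FPKM), *Baat* (7.53, 15.0 and 8.10) and *Cyp27a1* (44.5, 51.8 and 28.9) were likewise highest in replicate 2, whereas *Cyp7b1* was highest in replicate 3 (1.19, 1.58 and 2.26). Replicate 2 also had the highest hepatocyte marker sum of its group, and the part of these markers in the result was not tested. Without it, *Abcb11* was lower than with vehicle (log2 fold change -1.69, adjusted p = 0.0219 by treat, which over the alternatives ranged from 0.0219 to 1), the only 1 of the 10 genes so called. In the single MLN0128 library without *Xist*, replicate 3, *Abcb11* was at 6.39 FPKM, below all vehicle-treated tumors.

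Everolimus was compared with the same vehicle-treated libraries as MLN0128. Again 0 of the 10 genes were called by treat, against 0.570% of all tested genes lower and 0.0347% higher. By the moderated test 0 were called, against 6.05% lower and 3.78% higher, and 2 had an unadjusted p under 0.05. Those were *Abcb11* and *Abcb4*, the bile salt pump and the phospholipid flippase, and in both every everolimus-treated tumor lay above every vehicle-treated tumor, as was so for 17.6% of all tested genes. *Abcb11* was at 67.8, 44.0 and 66.7 FPKM with everolimus, 48.4% of normal, against 19.9% with vehicle. The log2 fold change was 1.23 (95% interval 0.111 to 2.34, adjusted p = 0.149 by limma's moderated test). *Abcb4* was at 12.5, 21.6 and 14.3 FPKM, 44.0% of normal against 21.3% (0.93, interval 0.231 to 1.62, adjusted p = 0.0863 by the moderated test). The moderated adjusted p moved with the libraries in the fit: for *Abcb11* it was 0.00396 without MLN0128 replicate 2 and 0.331 at the highest, and for *Abcb4* it ran from 0.0301 to 0.206.

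The remaining 8 genes overlapped between everolimus and vehicle. Among them *Cyp8b1* had the largest difference, at 3.09, 4.66 and 2.06 FPKM, a log2 fold change of -0.98 (interval -1.96 to 0.0038, adjusted p = 0.187 by the moderated test). *Cyp7a1*, at 2.56, 2.52 and 5.38 FPKM, had -0.23 (interval -1.47 to 1.00). *Slc10a1* was the most even, at 28.3, 25.9 and 27.0 FPKM, and *Slco1b2* was at 17.0, 26.2 and 12.8. *Cyp27a1* (38.1, 47.6 and 32.3 FPKM), *Baat* (8.10, 20 and 8.68), *Cyp7b1* (1.00, 3.02 and 1.52) and *Abcc2* (30.2, 40.3 and 29.7) were each highest in replicate 2. That library was the highest of its group for 7 of the 10 genes and also had the highest *Alb*, 4860 FPKM against 851 and 1320. *Abcb11* was instead lowest in it.

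**Figure D3:**
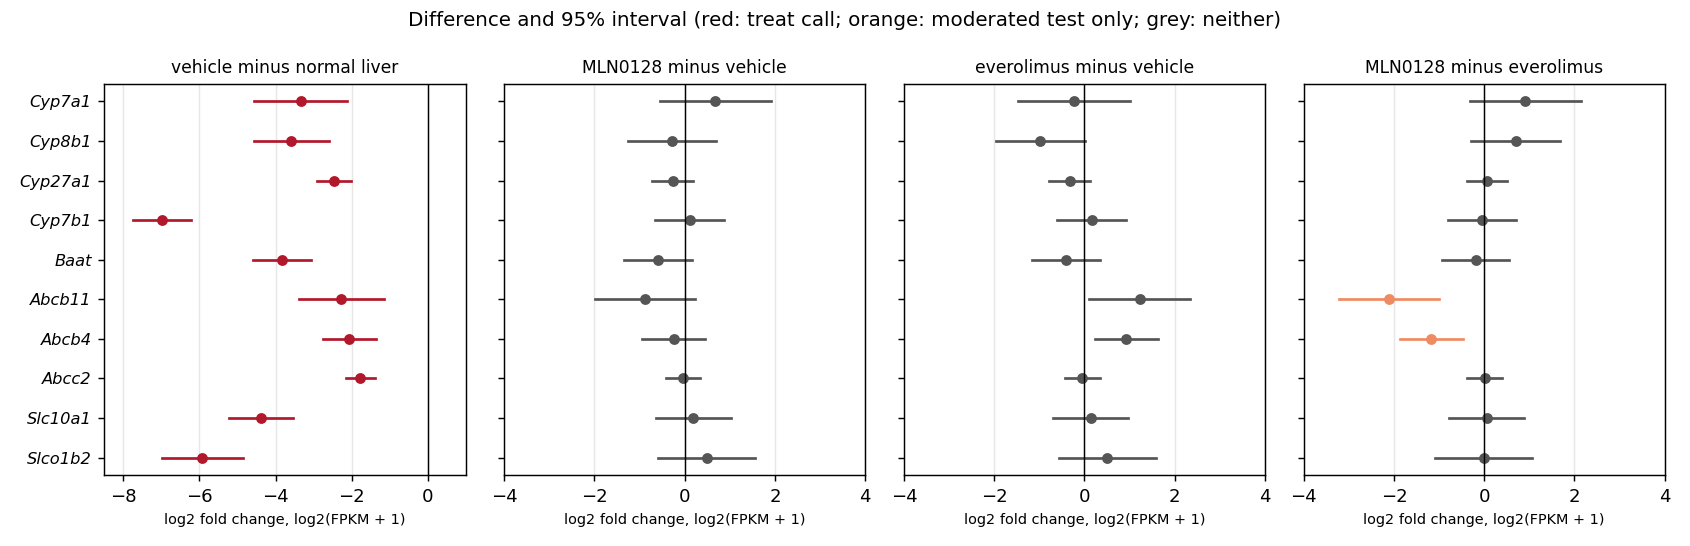
Log2 fold change on the log2(FPKM + 1) scale (points) with 95% intervals (lines) for the 10 genes in 4 comparisons, the first on its own axis range; red marks treat calls, orange marks genes called by the moderated test only. All 10 genes lie left of 0 in tumors against normal liver, and among tumors only *Abcb11* and *Abcb4* have intervals off 0, in the panels with everolimus.

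Between the drugs, MLN0128 and everolimus at the same dose and schedule, treat called 0 of the 10 genes, with 0.0347% of all tested genes lower and 0.00695% higher. By the moderated test 2 were lower with MLN0128, against 5.54% of all tested genes, and these were again *Abcb11* and *Abcb4*. In both, which this same comparison had singled out, every MLN0128-treated tumor lay below every everolimus-treated tumor, as for 15.2% of all tested genes. *Abcb11* differed by -2.11 on the log2 scale (SE 0.510, moderated adjusted p = 0.0281, limma) and *Abcb4*, at 6.36, 11.2 and 3.56 FPKM with MLN0128, by -1.17 (SE 0.317, adjusted p = 0.0417). With each library left out in turn the *Abcb11* call was kept in 8 of 12 fits and the *Abcb4* call in 3 of 12, with adjusted p up to 0.114 and 0.123. The *Abcb11* call was lost without MLN0128 replicate 1 or 3 and without everolimus replicate 1 or 3. The third canalicular exporter, *Abcc2*, was at 40.0, 31.8 and 29.0 FPKM with MLN0128 and differed by 0.0095 (interval -0.375 to 0.394). For the 5 synthesis genes and the 2 uptake carriers the differences ran from -0.19 (*Baat*) to 0.91 (*Cyp7a1*), with intervals that all held 0.

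Against normal liver, both drug groups were still far below. By treat, all 10 genes were lower with MLN0128 (20.2% of all tested genes were) and 8 of the 10 with everolimus (18.4% of all tested genes). The exceptions with everolimus were *Abcb11*, at -1.05 (adjusted p = 0.411 by treat and 0.0856 by the moderated test), and *Abcb4*, at -1.14 (0.136 and 0.00707). With plain library totals 8 genes were lower with MLN0128 and 7 with everolimus: *Abcc2* was no longer called in either group (-0.74, adjusted p = 0.345, and -0.89, adjusted p = 0.134, by treat), nor *Cyp7a1* with MLN0128 (-1.65, adjusted p = 0.0795). Everolimus-treated tumors nevertheless lay below all normal livers for all 10 genes. Thus *Abcb11* and *Abcb4* were ordered normal liver, everolimus, vehicle and MLN0128 by mean FPKM, and of these neighbors vehicle and MLN0128 overlapped, while everolimus and vehicle did not overlap but missed the adjusted threshold. For *Abcc2*, *Slc10a1*, *Slco1b2*, *Cyp27a1*, *Cyp7b1*, *Cyp8b1*, *Cyp7a1* and *Baat* the 3 tumor groups overlapped and only the normal livers stood apart.

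Of the 31 other pathway genes that did not pass the filter through 1 group alone, *Abcg2* was lower with MLN0128 than with vehicle by treat, at 3.88, 5.52 and 4.02 FPKM against 13.6, 9.62 and 14.8 (log2 fold change -1.31, SE 0.162, adjusted p = 0.0295, up to 0.170 over the alternatives, 7 of which lost the call), and 0 were called by treat with everolimus or between the drugs. The moderated test called 3 of the 31 lower with MLN0128 than with vehicle (9.68%, against 17.1% of all tested genes) and 0 higher (against 14.9%). With everolimus it called 2 lower and 2 higher (6.45% each, against 6.05% and 3.78%), and between the drugs 3 lower with MLN0128 (9.68%, against 5.54%) and 0 higher. The shares with MLN0128 against vehicle lay below those over all tested genes, and the others rest on 2 or 3 genes each. The drug comparisons with vehicle share the same 3 libraries. *Nr0b2* was at 8.18, 17.3 and 11.6 FPKM with everolimus, above all vehicle-treated tumors (1.95, SE 0.463, adjusted p = 0.0241 by the moderated test) and above all MLN0128-treated tumors, at 0.809, 3.36 and 1.77 (-2.20, adjusted p = 0.0177). *Abcb1a* was likewise higher with everolimus, at 18.5, 13.1 and 17.9 FPKM against 6.00, 11 and 4.29 with vehicle (1.18, adjusted p = 0.0400) and 3.12, 7.04 and 4.26 with MLN0128 (-1.63, adjusted p = 0.0139). *Slc51b* was at 25.6, 15.3 and 21.9 FPKM with everolimus and 2.68, 12.4 and 4.07 with MLN0128 (-1.77, adjusted p = 0.0185), and lower with MLN0128 than with vehicle (-1.20, adjusted p = 0.0300, kept in 8 of 12 fits with a library left out, up to 0.126). *Fgf15*, a bile acid-induced hormone of the intestine, was listed at 0 in normal liver, at 0.233 FPKM or less with vehicle and MLN0128, and at 0.537, 0.508 and 0.840 FPKM with everolimus; it was named after its values were seen, and since it passed the filter only through the everolimus group no test of it is given. With each library left out in turn, the calls between the drugs were kept in 10 of 12 fits for *Nr0b2* and *Abcb1a* and 9 of 12 for *Slc51b*, the losses falling without MLN0128 replicate 1 or everolimus replicate 3 (for *Slc51b* also everolimus replicate 1) at adjusted p of up to 0.0771. The calls of everolimus against vehicle were kept in 8 of 12 fits for *Nr0b2* and 7 of 12 for *Abcb1a*, with adjusted p up to 0.0976 and 0.156. *Abcg2* (-0.86) and *Abcc4* (-1.06) were lower with everolimus than with vehicle by the moderated test, and *Cyp39a1* (-1.26) was lower with MLN0128 than with vehicle. The *Abcg2* call was kept in 12 of 12 fits with a library left out, that of *Abcc4* in 4 of 12 (adjusted p up to 0.175) and that of *Cyp39a1* in 7 of 12 (up to 0.104).

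**Figure D4:**
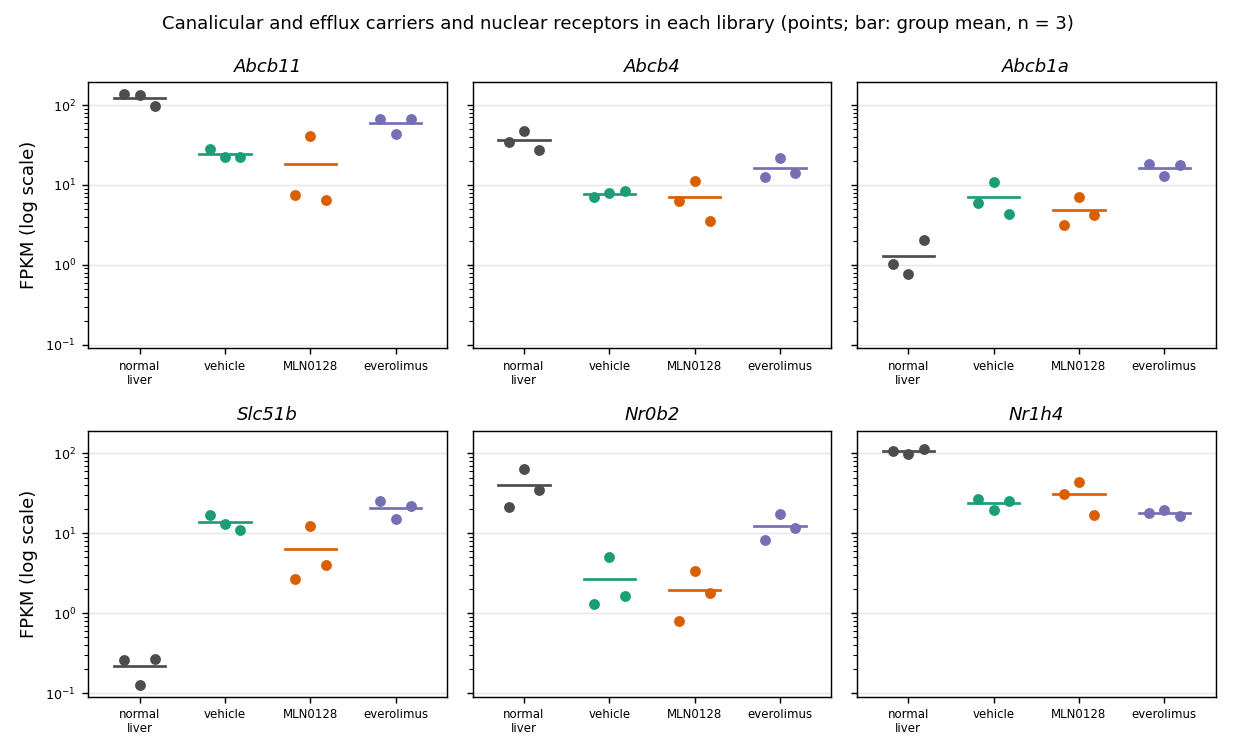
FPKM on a log axis for the canalicular carriers *Abcb11*, *Abcb4* and *Abcb1a*, the efflux carrier subunit *Slc51b* and the receptors *Nr0b2* (SHP) and *Nr1h4* (FXR) in each library; points are libraries and bars are group means (n = 3). In the first 5 panels, of genes picked because they differed between the drugs, all everolimus points lie above all MLN0128 points. *Nr1h4* is at 16.3 to 19.5 FPKM with everolimus and 17.0 to 44.3 with MLN0128.

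*Nr1h4* itself was not called in any comparison among tumors. It was at 18.1, 19.5 and 16.3 FPKM with everolimus and 30.7, 44.3 and 17.0 with MLN0128, with log2 fold changes against vehicle of -0.40 (adjusted p = 0.363) and 0.25 (adjusted p = 0.502) by the moderated test. Other cell types were looked at through fixed marker lists. Cholangiocyte markers, 7 of 8 with values, summed to between 71.0 and 99.6 FPKM in normal liver. The sums were 37.0 to 92.6 in the vehicle, 10.5 to 28.5 in the MLN0128 and 17.7 to 63.5 in the everolimus group. Most of the normal liver sum came from *Spp1* and *Slc10a2*, at means of 40.2 and 46.4 FPKM. Of 5 tested markers, 3 were higher and 1 lower with vehicle than in normal liver by treat (15.9% and 16.9% over all tested genes). *Krt19* was at 9.49 to 44.0 FPKM with vehicle and at 0.944 or less elsewhere. Mean *Epcam* and *Sox9* were 4.45 and 2.50 FPKM with vehicle against 0.925 and 0.337 in normal liver. Macrophage markers summed to 43.4 to 132 FPKM with everolimus, 58.3 to 92.2 with vehicle and 23.5 to 34.2 with MLN0128. Their median sum was highest with vehicle (68.0 FPKM), before everolimus (47.5) and MLN0128 (33.1). Erythroid markers, 3 with values, summed to 90.7 to 118 FPKM with everolimus, 32.3 to 79.4 with vehicle and 15.0 to 36.4 with MLN0128. By median erythroid sum, the tumor groups had the same order as by mean *Abcb11* and *Abcb4*. Within each tumor group, the library with the highest erythroid sum had the lowest *Abcb11*, in vehicle by only 22.4 against 22.6 FPKM. *Abcb4* in these libraries was in the middle of its group with vehicle (7.95 FPKM), lowest with MLN0128 (3.56) and highest with everolimus (21.6). Endothelial and stellate marker sums overlapped among the 3 tumor groups, lymphocyte markers summed to 2.64 FPKM or less in every library, and enterocyte markers summed to 4.11 to 10.9 FPKM with everolimus and 4.64 to 7.06 with MLN0128. In everolimus replicate 2, which had the highest sum of its group for all of these lists, *Abcb11* was lowest and *Abcb4* highest. The part of these markers in the results was not tested.

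The genes outside the pathway whose pattern was most like the mean of the 10 genes were *Cd302*, *Gm4788*, *AI182371*, *Apoc1* and *Stard10* over the 12 libraries, with Pearson r of 0.994 to 0.996, a measure that spans the gap between normal liver and tumors. Over the 9 tumors they were *Psma8* (r = 0.971), *Agxt2* (0.965), *Stard10* (0.945), *Ces1c* (0.944) and *Apof* (0.944). These r describe 12 and 9 libraries that share their scaling and were not tested.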

How the data were processed

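Gene-level FPKM of 12 libraries were used as deposited by the authors. Per the labels and the study's methods, total RNA was extracted from liver or tumor, libraries were made after polyA capture or rRNA removal and sequenced, read quality was checked with FastQC 0.11.7, and the authors counted reads per Ensembl gene on GRCm38, converted identifiers to symbols and scaled the values to FPKM. The authors' own tests used edgeR. The aligner is not given in the sources used here, and strand use in counting is not stated, so overlapping antisense genes could not be separated. Replicates are separate mice per the study. In 22 rows the symbol had been turned into a date, and these rows name no gene analysed here.

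Since FPKM are not counts, log2(FPKM + 1) was fitted with limma 3.58.1 in R 4.3.3, with an intensity trend and the 12 libraries in 1 model (8 residual degrees of freedom). Genes had to reach 0.5 FPKM in 3 or more libraries, which 14397 did and 2610 did not. Calls were made with treat against 1.5-fold at a Benjamini-Hochberg adjusted p under 0.05, and limma's moderated test is given beside it. A fold change on this scale understates the change of low genes. Reads were recovered from FPKM with GENCODE M21 exon lengths, and 98.2% to 98.8% of values under 20 reads were within 0.1 of a whole number, where 20.0% would be by position alone. The recovered reads gave the library totals and a limma voom alternative. Gene positions are from GENCODE M21, with 16890 of the 17007 symbols found.

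The 10 genes, the pathway and marker lists and the motifs were chosen with earlier results of these data known; 1 further gene of the pathway is not reported here. Of the other pathway lists, up to 3 called genes per list with the largest difference are named, plus *Nr1h4*, *Nr0b2*, *Slc27a5*, *Abcc3*, *Abcc4* and *Slco1a1*; *Hnf4a*, *Abcg2* in comparisons where it falls outside this rule, *Abcb1a* and *Fgf15* were named after their values were seen. The statistics were tested on simulated data first. Alternatives covered the pseudocount, filter, threshold, scaling, model, replicate block and each library left out. Figures were drawn with matplotlib 3.10.9.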

Additional observations from a re-analysis of the deposited data

Results flagged for a closer look

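The responses of 5 of 41 tested pathway genes to the 2 drugs differed by the direct comparison of MLN0128 with everolimus (limma's moderated test, adjusted p under 0.05), a test by which 5.54% of all tested genes were lower with MLN0128. The log2 fold change was -2.11 for *Abcb11* and -1.17 for *Abcb4* among the 10 genes. It was -2.20 for *Nr0b2*, -1.77 for *Slc51b* and -1.63 for *Abcb1a* among the other genes of the pathway. For all 5 genes every MLN0128-treated tumor lay below every everolimus-treated tumor, as did 15.2% of all tested genes. Because the 5 were picked by this same comparison, that adds no separate support. Of the 5, 0 passed treat against 1.5-fold. With each library left out in turn the call was kept in 8 of 12 fits for *Abcb11*, 3 of 12 for *Abcb4*, 10 of 12 for *Nr0b2* and *Abcb1a* and 9 of 12 for *Slc51b*. The 2 MLN0128 libraries with *Xist* RNA had *Abcb11* at 7.41 and 41.2 FPKM and the 1 without it at 6.39, and the part of this difference between libraries in the results was not tested.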

How the results depend on the processing

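Each result was recomputed under 24 alternatives, 12 of which left out 1 library; the alternative without both MLN0128 libraries that held *Xist* RNA was chosen after seeing the data. Against normal liver, of 240 values per comparison 237 for vehicle, 238 for MLN0128 and 235 for everolimus kept direction and side of the threshold. The exceptions with plain library totals included *Abcb11*, *Abcb4* and *Abcc2* in vehicle-treated tumors, which left 7 of the 10 genes called. That scaling moved calls over all tested genes from 2428 lower and 2282 higher to 1128 and 5215 for vehicle, from 2902 and 2457 to 1162 and 5923 for MLN0128, and from 2646 and 2433 to 1162 and 5206 for everolimus. Genes lower with MLN0128 than with everolimus numbered 2 by the moderated test and 1 without both libraries with *Xist*, against 0 by treat. Leaving out 1 library gave 0 to 1 genes lower with MLN0128 than with vehicle and 0 to 1 lower than with everolimus, the 1 being *Abcb11* without MLN0128 replicate 2 (-1.69 and -2.91, adjusted p = 0.0219 and 0.000509 by treat). The causes of these shifts were not tested.

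The rest of the changes of direction were in values that were not called by treat. With plain library totals *Rictor* in vehicle-treated tumors against normal liver came to 0.12, *Abcc2* with MLN0128 against vehicle to 0.11, and *Cyp7b1* and *Slco1b2* between the drugs to 0.046 and 0.11. *Slco1b2* between the drugs came to 0.019 with the median of ratios and 0.019 with voom on recovered reads. Without both libraries with *Xist*, MLN0128 against vehicle came to -0.20 for *Cyp7a1*, -0.66 for *Slc10a1* and -0.60 for *Slco1b2*, and MLN0128 against everolimus to 0.26 for *Cyp7b1*, -0.41 for *Cyp27a1*, -0.18 for *Abcc2* and -0.79 for *Slc10a1*. With each library left out, MLN0128 against vehicle ranged from -0.16 to 0.35 for *Cyp7b1*, -0.86 to 0.034 for *Cyp8b1*, -0.60 to 0.11 for *Abcb4*, -0.17 to 0.10 for *Abcc2*, -0.23 to 0.61 for *Slc10a1* and -0.14 to 1.03 for *Slco1b2*. Everolimus against vehicle ranged from -0.82 to 0.175 for *Cyp7a1*, -0.12 to 0.40 for *Cyp7b1*, -0.19 to 0.095 for *Abcc2* and -0.16 to 0.47 for *Slc10a1*. MLN0128 against everolimus ranged from -0.27 to 0.23 for *Cyp7b1*, -0.11 to 0.30 for *Cyp27a1*, -0.48 to 0.20 for *Baat*, -0.12 to 0.15 for *Abcc2*, -0.37 to 0.48 for *Slc10a1* and -0.65 to 0.53 for *Slco1b2*.

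Replicate numbers did not pair the libraries: deviations from the group means of same-numbered libraries correlated at -0.289 to 0.148. With the replicate number as a block, the vehicle-treated tumors had 10 of the 10 genes below normal liver and 0 were called among tumors by treat, and the moderated adjusted p between the drugs was 0.0471 for *Abcb11* and 0.0273 for *Abcb4*. With 3 libraries a group, the widest interval of MLN0128 against vehicle, that of *Cyp7a1*, was -0.556 to 1.91, and a gene that missed the threshold is not shown to be equal.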
